A study of Mus musculus with 16 samples.

Results

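The hippocampus of juvenile Mef2c-het mice was compared with that of WT mice on postnatal day 30 (P30), with attention to signalling, metabolic, immune and cell type genes rather than to broad synapse, neurogenesis or neuron death terms. The comparison takes the 8 arrays labelled with day 30, of 16 arrays in the series. Of these, 4 carried RNA of Mef2c-het mice, which the labels call KO, and 4 carried RNA of WT mice; the other 8 arrays hold the same genotypes at P1. Mef2c-het mice carry 1 conventional, exon 2-deleted Mef2c allele in all cells on the C57BL/6J background and were bred with WT littermates, so that a brain effect cannot be told apart from an effect of the deletion elsewhere in the body. The labels name neither sex, litter nor chip. Array numbers below are the replicate numbers of the labels (WT 2, 3, 6 and 7, Mef2c-het 3, 5, 6 and 7), and values are always listed in that order.

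MEF2C is a MADS-box transcription factor of neurons, microglia and endothelium. It is held silent by class IIa histone deacetylases, and calcium signals acting through calcineurin, calmodulin-dependent kinases and p38 kinases relieve that repression. Its known targets include activity-regulated genes such as Arc and Bdnf, Krüppel-like factors such as Klf2, and genes of striated muscle such as Myl1 and Myom1.

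The table holds 25697 probes, and 13413 of them, for 9920 genes, were kept because 4 or more of the 8 arrays detected them (detection p under 0.05). Values are log2 of the fluorescence of each probe averaged over its beads, quantile normalized over the 8 arrays, and differences are Mef2c-het minus WT on the log2 scale with the standard error (SE) from limma. No background was subtracted here, so differences of dim probes, near a log2 signal of 7 to 8, are smaller than the change in RNA would be. Only 1 probe, Ccl9, passed an adjusted p of 0.05, which is 0.00746% of the probes tested. At an unadjusted p under 0.05, the Mef2c-het signal was lower for 227 probes (1.69%) and higher for 89 (0.664%). Counted by gene, with the probe of highest mean signal, the shares were 1.9% and 0.716%. Of the calls by probe 71.8% were lower, a share that came to 56.9% with cyclic loess, 49.6% with the array cluster as a block and 70.4% with median scaling. Where the groups did not overlap, that is every Mef2c-het array lay on the same side of every WT array, 158 probes (1.18%) were lower and 77 (0.574%) higher. Each such probe has an exact two-sided permutation p of 0.0286, the smallest that 4 against 4 arrays allow, and apart from Ccl9 every one named below has a limma adjusted p of 0.976. These p-values measure the spread between arrays of different mice.

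The arrays formed 2 clusters that cut across the genotypes. The smaller held WT 6, WT 7 and Mef2c-het 7, and the larger held the other 5 arrays; background, as the 5th percentile of the signal, was 143.8 to 158.4 in the smaller and 105.8 to 124.6 in the larger. In the smaller cluster 169 genes (1.70% of those tested) had a mean level lower by over 1 on the log2 scale, and 0 genes had one higher by as much. The smaller cluster holds 2 WT arrays and 1 Mef2c-het array, and 1 of these 169 genes was lower in Mef2c-het mice. Values in the larger cluster alone (2 WT and 3 Mef2c-het arrays) are given below for most lists and for the genes with separate groups whose difference there changed by over 1.5 times. Pearson correlations between arrays were 0.985 to 0.997, and all 8 mice read as male from Xist and Y-linked probes. Of 18 markers of hippocampal subfields 13 passed the detection filter, among them Prox1, Wfs1 and Neurod2. Of 24 meningeal markers 21 passed, and of 20 choroid plexus and ependyma markers 10.

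Mef2c itself is read by 2 probes, whose place relative to the deleted exon the table does not give; a probe outside that exon does not check the label. On the first, the signal was 8.58, 8.56, 8.92 and 8.66 on the WT arrays and 8.13, 8.39, 8.13 and 8.91 on the Mef2c-het arrays, a difference of -0.29 ± 0.17. The second gave 9.56, 9.75, 9.75 and 9.57 against 9.16, 9.71, 8.93 and 9.87, a difference of -0.24 ± 0.19. The exact permutation p was 0.200 and 0.371, and on both probes Mef2c-het 7 was as high as or higher than most WT arrays, so the groups overlapped. In the larger cluster the differences were -0.36 and -0.39. Among the 5 tested genes next to Mef2c on either side in the RefSeq gene order, differences ran from -0.25 for Rasa1 to 0.29 for Nr2f1, and none of the 10 had groups that did not overlap.

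Among the partners of MEF2C, the class IIa histone deacetylase Hdac4 was the gene with separate groups. Its signal was 9.51, 9.60, 9.49 and 9.63 in WT mice and 9.18, 9.23, 9.28 and 9.44 in Mef2c-het mice. All 4 Mef2c-het arrays were below all WT arrays, by -0.27 ± 0.07 on average, and by -0.33 in the larger cluster. Hdac5 (0.05 ± 0.09) and Hdac7 (-0.08 ± 0.10) differed by no more than their errors, as did Mef2a (-0.04 ± 0.11), while Mef2d gave 0.11 ± 0.07. Of 23 tested kinases and phosphatases that act on MEF2, 17 were lower, with a median of -0.07; for comparison, 55.8% of all tested genes were lower and their median was -0.01. The median of the kinase list was -0.11 without Mef2c-het 7 and -0.05 in the larger cluster. The lowest were Ppp3ca, a catalytic subunit of calcineurin (-0.22 ± 0.09), and Mapk14, the p38 alpha kinase (-0.17 ± 0.07), which had unadjusted p-values under 0.05 but overlapping groups.

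Over the 8 arrays, known MEF2 target genes had the lowest median of the 43 lists. Of 21 listed genes 16 were tested, 15 of these were lower in Mef2c-het mice, and the median difference was -0.16, both over the 8 arrays and in the larger cluster. In the larger cluster the choroid plexus and ependyma list had a lower median, at -0.24. The lists and their members were chosen with earlier results of these data known, so the rank is a description and not a test. Across the 20 other settings the median of the MEF2 target list stayed below 0, between -0.22 and -0.08, and it was -0.10 without WT 3. Its mean level was 0.08, 0.19, -0.01 and 0.06 in WT and -0.12, 0.11, -0.17 and -0.13 in Mef2c-het mice. The groups overlapped, as Mef2c-het 5 lay above WT 2, WT 6 and WT 7. Myom1, a protein of the muscle M-band that is dim in brain, was the member whose groups did not overlap (130 lower genes or 1.31%, and 61 higher genes or 0.615%, did so among all genes tested), with 7.44, 7.49, 7.44 and 7.53 against 7.26, 7.30, 7.34 and 7.36. Its probe was detected on all 4 WT arrays and on 2 Mef2c-het arrays. Myl1, a light chain of fast muscle myosin, had the widest gap of the list at -0.62 ± 0.15, with 9.03, 8.77, 8.37 and 8.73 in WT and 7.98, 8.43, 8.02 and 7.96 in Mef2c-het mice, where Mef2c-het 5 reached above WT 6. The voltage-gated potassium channel gene Kcna1 gave -0.27 ± 0.10. The Krüppel-like factors Klf6, Klf2 and Klf4 gave -0.24 ± 0.15, -0.20 ± 0.13 and -0.05 ± 0.10, and Bdnf, a neurotrophin induced by activity, gave -0.17 ± 0.09, in each case with overlapping groups.

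**Figure D1:**
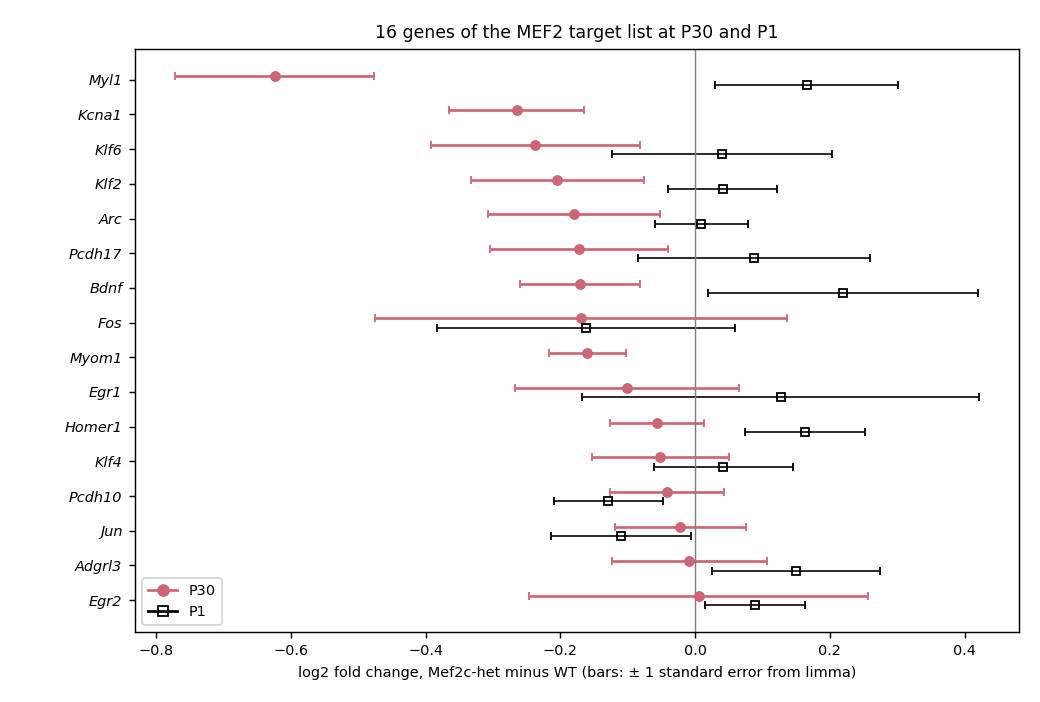
Log2 fold change (Mef2c-het minus WT) of the 16 tested genes of the MEF2 target list at P30 (filled circles) and, where tested, at P1 (open squares), with bars of 1 standard error from limma. At P30 15 of 16 points lie left of 0, and at P1 3 of 14 do.

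Part of the MEF2 target list is also activity-regulated. Of the 16 tested immediate early genes, which neurons switch on within minutes of firing, 13 were lower, with a median of -0.08, and 6 of them (Arc, Egr1, Egr2, Fos, Homer1 and Jun) are in both lists. The 10 MEF2 targets outside the immediate early list were all lower, with a median of -0.17. Of these, Adgrl3 (-0.01 ± 0.12), Pcdh10 (-0.04 ± 0.08) and Klf4 (-0.05 ± 0.10) differed by less than their errors, and the others by more. Bdnf is among the 10 and is also induced by activity, so the split does not free them of activity-regulated genes. The 10 immediate early genes outside the MEF2 list had 8 lower and a median of -0.08. The mean level of the immediate early list varied between mice of the same genotype, from -0.13 (WT 6) to 0.22 (WT 3) and from -0.26 (Mef2c-het 7) to 0.18 (Mef2c-het 5), so that its groups overlapped, and its median was -0.04 without WT 3, -0.21 without Mef2c-het 5 and -0.12 in the larger cluster. Gadd45b, a stress and activity-induced gene, was the member with an unadjusted p under 0.05, at -0.22 ± 0.09.

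The promoters of genes on these lists were searched on both strands for the MEF2 consensus motif in RefSeq's windows on GRCm38.p6, from 250 bases before to 50 bases after the start. The motif stood in 183 of 32851 promoters (0.557%) and in 36 of the 7888 found for tested genes (0.456%). It was in 0 of the 114 promoters found for genes with a lower probe whose groups did not overlap and in 0 of 56 for higher ones. For the 21 genes of the MEF2 target list, tested or not, 16 promoters were found, and 2 held the motif, those of Jun and Klf2. Shown are these 2 and that of Ccl9, the gene that passed the adjusted threshold and holds no such letters in its window, each as the 150 bases before the start on the gene's own strand, with the MEF2 motif in capitals.
Jun, chr4:95052223-95052372, minus strand: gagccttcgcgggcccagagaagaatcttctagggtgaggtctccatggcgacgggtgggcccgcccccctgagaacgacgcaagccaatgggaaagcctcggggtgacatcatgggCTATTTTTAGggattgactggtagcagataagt
Klf2, chr8:72318912-72319061, plus strand: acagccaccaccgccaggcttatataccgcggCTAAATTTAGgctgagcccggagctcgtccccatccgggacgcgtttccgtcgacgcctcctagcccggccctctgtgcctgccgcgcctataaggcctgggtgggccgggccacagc
Ccl9, chr11:83578637-83578786, minus strand: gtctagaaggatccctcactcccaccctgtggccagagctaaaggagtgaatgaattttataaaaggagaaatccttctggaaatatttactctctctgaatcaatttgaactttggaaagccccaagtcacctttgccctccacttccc
The motif begins 33 bases before the start in Jun and 118 bases before it in Klf2. With the motif, Klf2 read 8.54, 8.84, 8.34 and 8.52 against 8.58, 8.49, 8.11 and 8.24, and Jun read 9.84, 10.01, 9.70 and 10.13 against 9.81, 9.84, 10.01 and 9.92. Both sets overlapped, and Jun differed by -0.02 ± 0.10.

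Among the immune genes, the gene past the adjusted threshold was a chemokine. Ccl9, a ligand made by macrophages and microglia that signals through Ccr1, read 8.41, 8.28, 8.33 and 8.37 in WT mice and 7.75, 7.56, 7.44 and 7.61 in Mef2c-het mice. It fell by 0.76 ± 0.08 on the log2 scale, to 0.592 of the WT signal, with a limma adjusted p of 0.0271, and every Mef2c-het array was below every WT array. With normexp background correction the difference was -1.55 and the adjusted p 0.126; the direction held under all settings, with the adjusted p above 0.05 in 13 of them. Ccl4, the tested gene that follows Ccl9 on chromosome 11, was 7.52, 7.46, 7.77 and 7.61 against 7.45, 7.41, 7.40 and 7.33, a difference of -0.19 ± 0.08 that was -0.07 in the larger cluster, and its probe was detected on 3 of 4 Mef2c-het arrays. Of the 5 tested genes before and the 5 after Ccl9, Ccl4 was the member whose groups did not overlap. In all, 12 of 41 chemokine and chemokine receptor genes were tested, 7 were lower, and the list median was -0.08, or -0.04 without Mef2c-het 3 and -0.05 in the larger cluster. The mean level of the list was 0.05, 0.03, 0.08 and 0.06 on the WT arrays and -0.11, -0.02, -0.08 and -0.02 on the Mef2c-het arrays, without overlap. That separation rested on Ccl9: for the other 11 genes, of which 6 were lower, the levels were 0.01, 0.00, 0.05 and 0.03 against -0.10, 0.01, -0.04 and 0.02, which overlapped, with a median difference of -0.07.

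The 3 chains of C1q, the recognition molecule that starts the classical complement cascade and tags synapses for microglia, were all higher in Mef2c-het mice. C1qb read 10.55, 10.56, 10.52 and 10.58 in WT and 10.95, 10.67, 10.77 and 10.86 in Mef2c-het mice, a difference of 0.26 ± 0.07. C1qa gave 8.61, 8.52, 8.73 and 8.70 against 8.94, 8.75, 8.75 and 9.15 (0.26 ± 0.10), and C1qc gave 10.25, 10.27, 10.32 and 10.28 against 10.47, 10.33, 10.33 and 10.45 (0.11 ± 0.06). In none of the 3 did the groups overlap, although the closest WT and Mef2c-het arrays differed by little in C1qa and C1qc, and in the larger cluster the differences were 0.25, 0.25 and 0.12 for C1qb, C1qa and C1qc. The 3 genes lie side by side on chromosome 4 and are transcribed in the same cells, so they are not independent measurements. Of 12 tested complement genes 9 were higher with a median of 0.04, which was 0.00 in the larger cluster, 0.01 without Mef2c-het 7 and 0.09 without Mef2c-het 5.

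Microglia markers leaned higher, while single members with separate groups lay on both sides. Of 27 tested microglia markers 21 were higher, with a median of 0.09, 0.07 in the larger cluster and 0.05 without Mef2c-het 3. P2ry12, a purinergic receptor of microglia (0.32 ± 0.32), is among the 169 genes that were lower in the smaller array cluster, and in the larger cluster it differed by 0.05. Ms4a6d, a membrane protein of the CD20-related family, was higher on every Mef2c-het array, with 7.80, 7.80, 7.80 and 7.64 against 8.31, 8.10, 7.97 and 8.18, a difference of 0.38 ± 0.08; its second probe gave 0.13. Gpr34, a receptor for lysophosphatidylserine, was lower with 8.35, 8.42, 8.43 and 8.50 against 8.29, 8.20, 8.31 and 8.10 (-0.20 ± 0.07), or -0.12 in the larger cluster, and its second probe gave -0.11. Selplg, which encodes the P-selectin ligand, was also lower, at 9.85, 9.84, 10.10 and 10.01 against 9.79, 9.64, 9.71 and 9.73 (-0.23 ± 0.08), or -0.13 in the larger cluster. Aif1, Cx3cr1 and Tmem119 had overlapping groups. In this bulk tissue fewer cells of a type and less RNA per cell cannot be told apart.

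**Figure D2:**
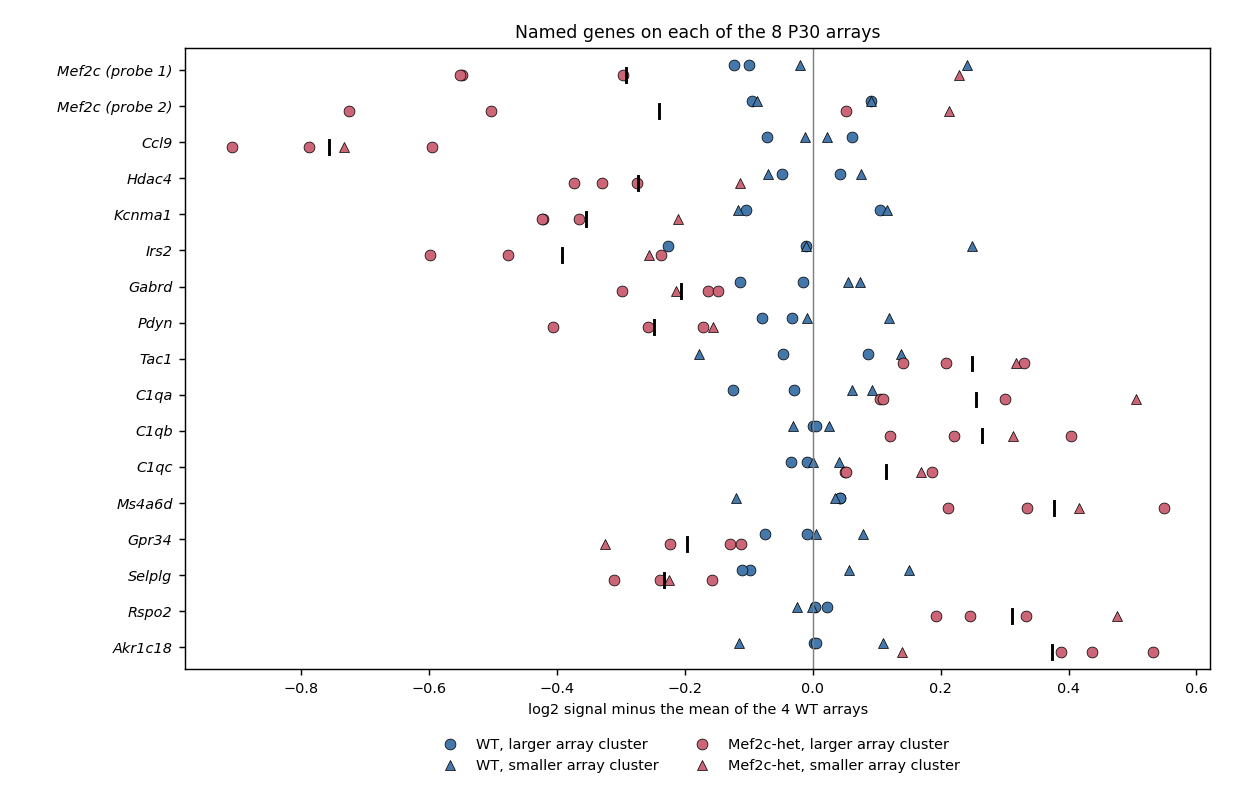
Log2 signal of 16 genes (17 probes) on each P30 array, as the difference from the mean of the 4 WT arrays; blue points are WT, red points Mef2c-het, circles the larger and triangles the smaller array cluster, and the black bar is the Mef2c-het mean. Except for both Mef2c probes, the red and blue points of each row do not overlap.

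Interferon and antigen presentation genes had 15 of 30 tested genes lower and a median of 0.00 that changed sign under 12 of the 20 other settings. Inside it, Irf9 and Stat2, which carry type I interferon signals to the nucleus, had separate groups. Irf9 read 8.11, 8.26, 8.09 and 8.10 against 7.96, 8.03, 7.98 and 7.98 (-0.15 ± 0.06), and Stat2 read 8.13, 8.14, 8.16 and 8.14 against 7.88, 8.08, 8.02 and 8.05 (-0.14 ± 0.06). Both were lower on every Mef2c-het array. In the larger cluster the differences were -0.20 and -0.15.

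Over the 8 arrays, ion channel and receptor families were lower in the majority of their members. Of 9 tested genes of GABA receptors and their scaffold 8 were lower, with a median of -0.11 over the 8 arrays and in the larger cluster. Gabrd, the delta subunit of extrasynaptic GABA-A receptors on granule cells, read 9.02, 9.12, 9.21 and 9.19 in WT and 8.97, 8.84, 8.99 and 8.92 in Mef2c-het mice (-0.21 ± 0.07), and the groups did not overlap; a second probe gave -0.08. The exception was Gabrb1 at 0.07 ± 0.07. With no detection filter 15 members were measured, 8 were lower and the median was -0.04. Of 39 tested potassium channel genes 27 were lower with a median of -0.05, which was -0.02 without WT 6, -0.07 without Mef2c-het 7 and -0.04 in the larger cluster. The large-conductance calcium-activated channel gene Kcnma1 had the widest gap, at 8.92, 9.13, 9.14 and 8.90 against 8.60, 8.66, 8.60 and 8.81 (-0.36 ± 0.08), and its lowest WT array was above its highest Mef2c-het array. Of 26 tested sodium and calcium channel genes 19 were lower with a median of -0.05, the same in the larger cluster and -0.10 without Mef2c-het 7. Its member Pkd2l1, a polycystin-family cation channel, read 7.69, 7.73, 7.63 and 7.70 against 7.49, 7.49, 7.46 and 7.48 (-0.21 ± 0.05). Glutamate receptor genes had 10 of 14 lower and a median of -0.04, which was 0.00 without Mef2c-het 6 and -0.08 without WT 2. With the array cluster as a block, 7 of 14 glutamate receptor genes were lower, with a median of -0.004. The same block gave medians of -0.08 for GABA receptors, -0.03 for potassium channels and -0.02 for sodium and calcium channels.

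Neuropeptide genes leaned the other way, with 16 of 22 tested genes higher and a median of 0.08, or 0.06 in the larger cluster. The mean level of the list was 0.00, 0.02, -0.04 and -0.19 on the WT arrays and 0.04, 0.02, 0.11 and 0.04 on the Mef2c-het arrays. These did not overlap, though WT 3 (0.0181) and Mef2c-het 5 (0.0183) nearly met. Of the 43 lists, only this one and the chemokine list with Ccl9 included had separate levels. No test weighed this against the number of lists. Tac1, the precursor of substance P, was higher with 8.86, 9.0, 9.05 and 8.73 against 9.05, 9.24, 9.12 and 9.23 (0.25 ± 0.08), although WT 6 and Mef2c-het 3 both round to 9.05. Pdyn, the precursor of dynorphin in granule cells, was lower with 10.14, 10.19, 10.21 and 10.34 against 9.96, 9.81, 10.05 and 10.06 (-0.25 ± 0.08), while its second probe gave -0.08 with overlapping groups. Vip (0.45 ± 0.20), Nts (0.31 ± 0.13) and Sst (0.29 ± 0.19) had overlapping groups, and in the larger cluster gave 0.16, 0.15 and 0.19. Calb2, which is on the interneuron list and also on that of thalamus, striatum and other regions, was higher. It read 11.62, 11.67, 11.58 and 11.56 against 11.68, 11.81, 11.82 and 11.90 (0.19 ± 0.06), or 0.13 in the larger cluster. The interneuron list had 8 of 15 genes lower and a median of -0.01 that changed sign under 6 of the 20 other settings.

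Mitochondrial genes were higher by small amounts in most members. Of 70 tested genes of oxidative phosphorylation 57 were higher, with a median of 0.06, where 44.2% of all tested genes were higher; a fit that blocked on the cluster gave 0.06 and 10 lower genes in place of 13, and the larger cluster gave 0.08. The list held 7 of the 169 genes that were lower in the smaller array cluster. Among them Ndufb9 read 10.15, 10.12, 8.48 and 7.98 in WT and 9.80, 10.35, 10.54 and 8.22 in Mef2c-het mice, where WT 6, WT 7 and Mef2c-het 7 were the low arrays in both genotypes. Without the 7 genes the median was 0.05. Ndufb7, an accessory subunit of complex I, had separate groups at 9.53, 9.31, 9.52 and 9.55 against 9.68, 9.55, 9.80 and 9.59 (0.18 ± 0.08), as did Cox5a, a subunit of complex IV, at 0.10 ± 0.05. Fh1, the fumarase of the citric acid cycle, also did, at 11.36, 11.33, 11.42 and 11.30 against 11.51, 11.45, 11.45 and 11.44 (0.11 ± 0.06). None of these 3 passed the adjusted threshold. Of 31 tested antioxidant genes 26 were higher with a median of 0.06 (0.07 in the larger cluster), and of 59 cytosolic ribosomal protein genes 41 were higher with a median of 0.04, or 0.02 without WT 3 and 0.05 in the larger cluster; in the latter Rps2 went against the list, at -0.15 ± 0.06 with separate groups, although sequence shared with processed pseudogenes leaves its reading uncertain.

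**Figure D3:**
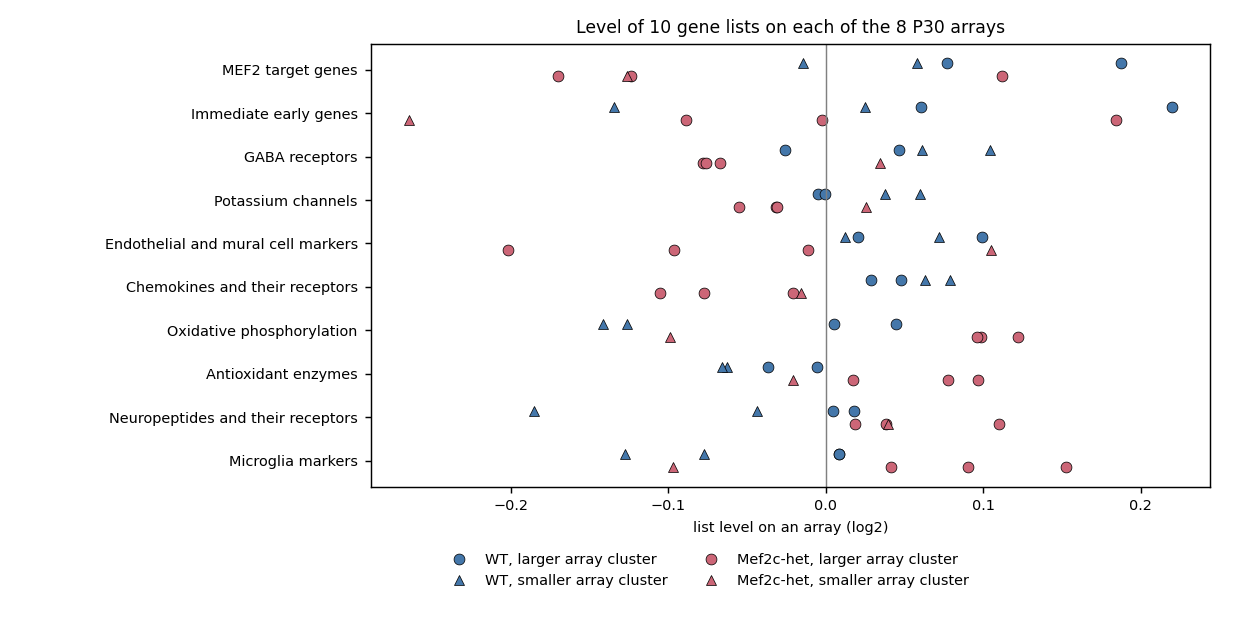
Mean level of 10 gene lists on each P30 array, where each gene is centred on its mean over the 8 arrays (log2 scale); colours and shapes mark genotype and array cluster. The chemokine and neuropeptide lists do not overlap between genotypes, the former only with Ccl9 included, and for oxidative phosphorylation WT 6, WT 7 and Mef2c-het 7 lie below the other arrays while Mef2c-het is above WT within each cluster.

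Vascular genes had the most one-sided list, among lists chosen with earlier results of these data known. Of 23 tested markers of endothelium and mural cells 22 were lower, and the median was -0.07, with -0.11 in the larger cluster, -0.01 without Mef2c-het 6 and -0.12 without Mef2c-het 7. None had separate groups, and the mean level was 0.02, 0.10, 0.07 and 0.01 on the WT arrays and -0.01, -0.10, -0.20 and 0.11 on the Mef2c-het arrays. Mef2c-het 7 was thus the highest of the 8 arrays. The endothelial adhesion protein gene Vwf gave -0.25 ± 0.10 and the smooth muscle actin gene Acta2 gave -0.47 ± 0.28, for which Mef2c-het 7, at 10.38, was again with the WT arrays. Matrix and perineuronal net genes had 20 of 27 lower and a median of -0.06, or -0.10 without Mef2c-het 7 and -0.09 in the larger cluster. The laminin gamma 1 gene Lamc1 read 8.59, 8.60, 8.67 and 8.60 against 8.50, 8.47, 8.36 and 8.44 (-0.17 ± 0.06).

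Meningeal markers were higher in 17 of 21 genes with a median of 0.12, but the larger cluster alone gave -0.11, and the median was 0.29 without WT 3 and 0.02 without Mef2c-het 7. The mean level of this list ranged from -0.25 to 0.31 over the WT arrays and from -0.22 to 0.28 over the Mef2c-het arrays. The choroid plexus and ependyma list was highest on WT 2, at 0.57, against -0.31 to 0.17 on the other 7 arrays, and its median was -0.04, 0.09 without WT 2, -0.10 without WT 6 and -0.24 in the larger cluster. For oligodendrocytes 17 of 26 genes were lower with a median of -0.08, or -0.02 without WT 7. The 18 lists not described singly had medians from -0.05 to 0.07, and leaving out 1 array moved each of these medians by over 1.5 times or turned its sign. Blood markers (5 genes) gave 0.07 and 0.17 without Mef2c-het 6, hippocampal subfields 0.05 and 0.02 without Mef2c-het 5, and chaperones 0.04, 0.00 without WT 6 and -0.02 in the larger cluster. The part of dissection in the vascular, meningeal and other lists was not tested.

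**Figure D4:**
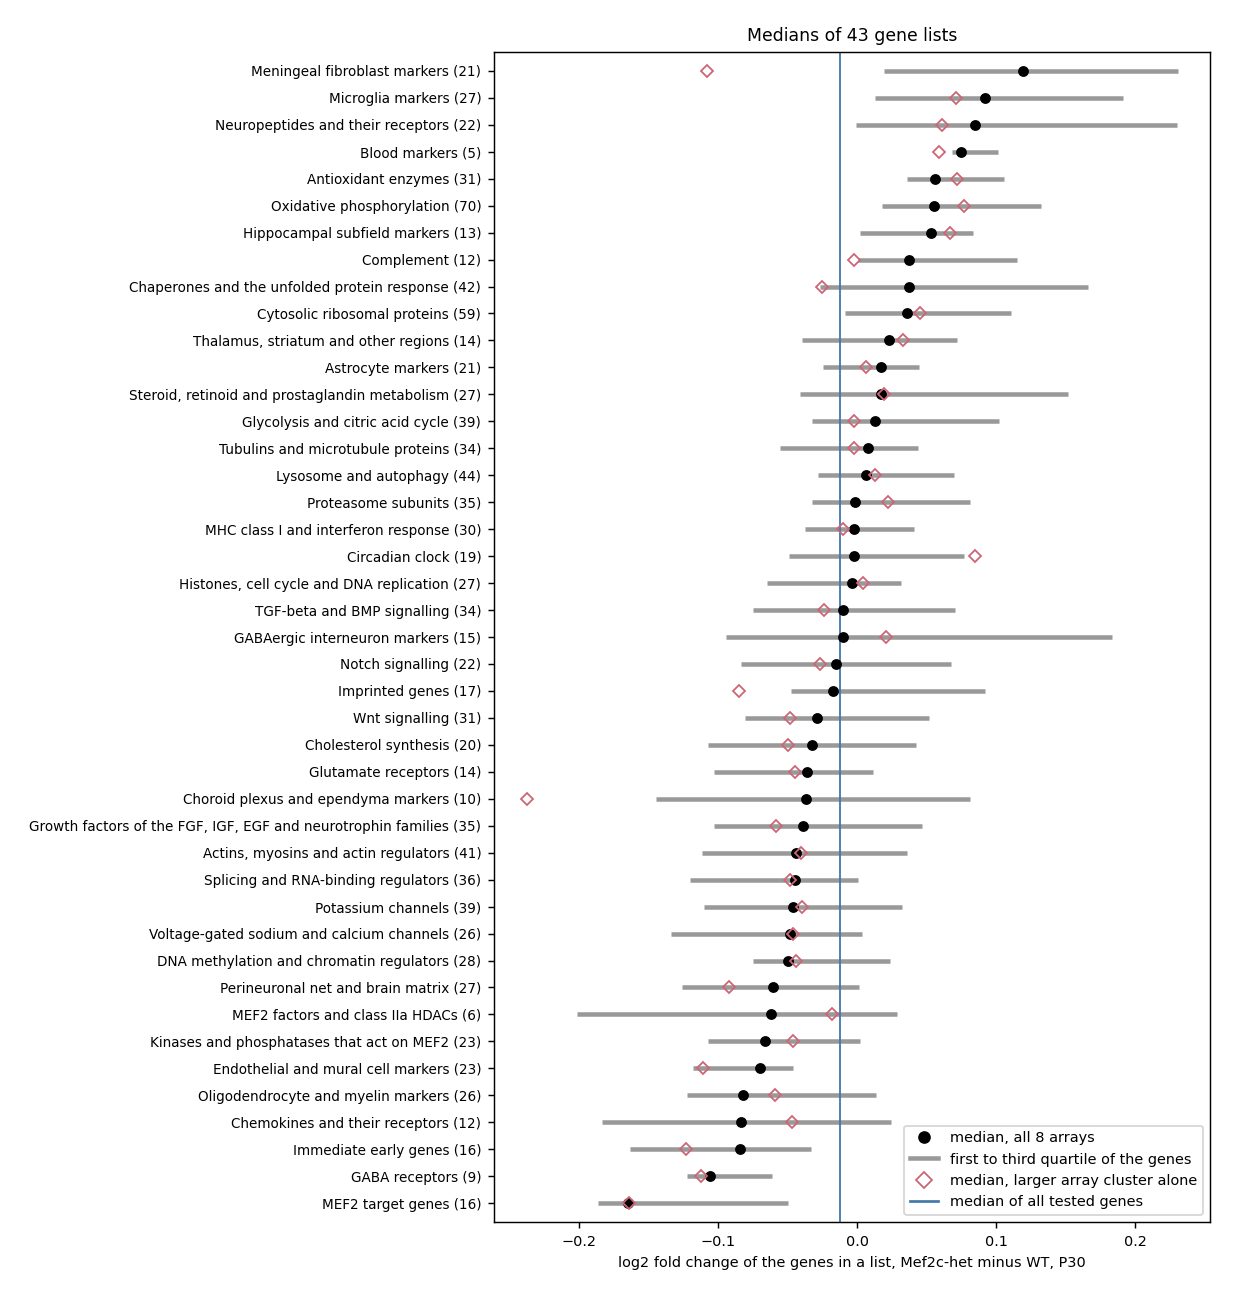
Median log2 fold change (Mef2c-het minus WT) of the tested genes of each of 43 lists (black points; number of tested genes in parentheses), with the interquartile range of the genes (grey) and the median in the larger array cluster alone (open red diamonds). The blue line is the median of all tested genes, -0.01. Over all arrays the MEF2 target list lies lowest at -0.16. The lists and their members were chosen with earlier results of these data known. The meningeal and choroid plexus lists differ most between all arrays and the larger cluster.

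Several signalling genes stood apart one at a time. Irs2, the adaptor of insulin and IGF receptors, read 9.04, 9.26, 9.26 and 9.52 in WT and 8.79, 9.03, 8.67 and 9.01 in Mef2c-het mice (-0.39 ± 0.12). The FGF receptor gene Fgfr2 gave -0.17 ± 0.07 on 1 probe, with the closest arrays of the 2 groups both at 7.72, and 0.05 on another. Ephb1, a receptor for ephrins, was lower at 10.70, 10.45, 10.74 and 10.79 against 10.37, 10.41, 10.24 and 10.40 (-0.31 ± 0.08). Rspo2, a secreted enhancer of Wnt signalling, was higher at 8.74, 8.72, 8.69 and 8.71 against 8.91, 8.96, 9.05 and 9.19 (0.31 ± 0.07), and the 4 WT arrays lay closer together than the Mef2c-het arrays. Of 31 tested Wnt genes 20 were lower, with a median of -0.03, or -0.01 without Mef2c-het 6 and -0.05 in the larger cluster. The gamma-secretase subunits Aph1a and Psenen, which cut Notch and APP, were higher by 0.10 ± 0.06 and 0.13 ± 0.06 with separate groups, in a Notch list of 22 genes with 13 lower and a median of -0.02 that turned positive with cyclic loess and with median scaling.

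Among cytoskeletal genes, Wasl, the neuronal WASP that starts actin branching, was lower on every Mef2c-het array. It read 12.26, 12.41, 12.47 and 12.41 against 12.19, 12.18, 12.17 and 12.25 (-0.19 ± 0.06). Of the 3 probes of beta-actin (Actb), 1 had separate groups at -0.35 ± 0.09 and the others gave -0.20 with overlap, in a list of 41 actin and myosin genes of which 23 were lower. Actb is often used as a reference gene.

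Akr1c18, which inactivates progesterone, was higher at 7.81, 7.81, 7.69 and 7.92 against 8.24, 8.20, 8.34 and 7.95 (0.37 ± 0.09), with Mef2c-het 7 just above the highest WT array. Gpd1, the cytosolic glycerol-3-phosphate dehydrogenase, was higher by 0.22 ± 0.06. Pcna, the clamp of DNA replication, was higher by 0.35 ± 0.12. The Pcna probe was detected on 2 of 4 WT arrays and on all Mef2c-het arrays, and the difference was 0.19 in the larger cluster. The cyclin-dependent kinase gene Cdk2 differed by -0.13 ± 0.07, and its second probe gave -0.07 with overlapping groups. The imprinted gene Mest gave -0.10 ± 0.06 with separate groups, while its other probes gave 0.04 and 0.19. The remaining probes with separate groups and the smallest limma p were lower in Ints3, Ttpal and Lgi3, with differences from -0.26 to -0.21, in Mme and Olfr1195, where there is only a bound, and higher in Tpd52l1, Rit2, Acin1, Chka, Ptp4a3 and 1110017D15Rik, by 0.19 to 0.32. Other probes had the opposite sign for Acin1 (-0.15, where the first probe gave 0.16 in the larger cluster), for Ptp4a3 (-0.10) and for Chka (-0.03 and -0.14). Smaller differences with overlapping groups came from other probes of Ints3 (-0.08 and -0.05) and Ttpal (-0.08 and -0.01). The same held for Tpd52l1 (0.20) and 1110017D15Rik (0.09 and 0.16). The probe of Mme, the endopeptidase neprilysin, was above background on all 4 WT arrays and on 0 of 4 Mef2c-het arrays, so that it passed the detection filter through the WT arrays alone, with means of 7.44 and 7.24, and was at least 1.08-fold lower; that of Olfr1195 was likewise at least 1.07-fold lower.

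The P1 arrays come from other mice and share no controls with P30, and by Xist and Y-linked probes 1 of 4 WT and 2 of 4 Mef2c-het mice were male there. Of the 218 probes with separate groups at P30 that were also tested at P1, 105 (48.2%) had the same direction at P1, against 46.5% of all 12594 probes tested at both ages. Separate groups in the same direction at both ages were seen for 4 probes (1.83%), and in opposite directions for 3 (1.38%: Togaram2, Adam23 and Steap2). Of the probes tested at both ages, 1.25% had separate groups at P1 in either direction. At P1 alone 0.73% of all probes were separate and lower and 0.56% separate and higher. The 4 were Ccl9, Gpr34, Ms4a6d and Ntpcr. Ccl9 gave -0.68 ± 0.10 at P1, Gpr34 gave -0.34 ± 0.07 and Ms4a6d gave 0.36 ± 0.10. These 3 are genes of microglia and macrophages, but 4 probes are too few to set a cell type apart. The microglia list had opposite majorities at the 2 ages, as given below. Ntpcr, a nucleoside triphosphatase, was higher by 0.11 ± 0.06 at P30 and by 0.20 ± 0.07 at P1. At P1, limma called 0 probes at an adjusted p of 0.05 and 220 (138 lower) at an unadjusted p under 0.05. With sex as a covariate the counts at P1 were 0 and 291 (206 lower).

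Many of the 43 lists had opposite majorities at the 2 ages, and 46.5% of all probes tested at both ages kept their direction. Kinases and phosphatases that act on MEF2 were lower in 17 of 23 genes at P30 and 7 of 23 at P1. Antioxidant genes were lower in 5 of 31 and 22 of 30, and ribosomal protein genes in 18 of 59 and 41 of 59. Other lists kept their majority, such as Wnt signalling (20 of 31 and 15 of 26 lower). MEF2 targets were lower in 15 of 16 genes at P30 and in 3 of 14 at P1 (median 0.06), oxidative phosphorylation in 13 of 70 and in 41 of 70, vascular genes in 22 of 23 and in 5 of 22, and microglia markers in 6 of 27 and in 21 of 26 (median -0.12 at P1), where 55.8% of all tested genes were lower at P30 and 47.5% at P1. These differences between the ages were not tested as lists. All 8 P30 mice read as male and the P1 mice were of both sexes, so age cannot be told apart from sex here. The test of each probe asked whether the effect of genotype differed with age and held no term for sex. In it, 0 of 14777 probes had a limma adjusted p under 0.05 and 438 (2.96%) an unadjusted one. The smallest p-values belonged to Kcnma1, Steap2 and Cyfip1, lower at P30 relative to P1, and to Ly86, Spp1 and Dap, higher at P30 relative to P1, each with a limma adjusted p of 0.998. Kcnma1 gave -0.36 ± 0.08 at P30 and 0.15 ± 0.07 at P1, a difference of -0.51 ± 0.11. Cyfip1, a partner of FMRP in the WAVE complex, gave -0.19 ± 0.06 and 0.10 ± 0.06. Ly86, which pairs with the receptor RP105 on myeloid cells, gave -0.03 ± 0.10 at P30 and -0.77 ± 0.12 at P1.

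**Figure D5:**
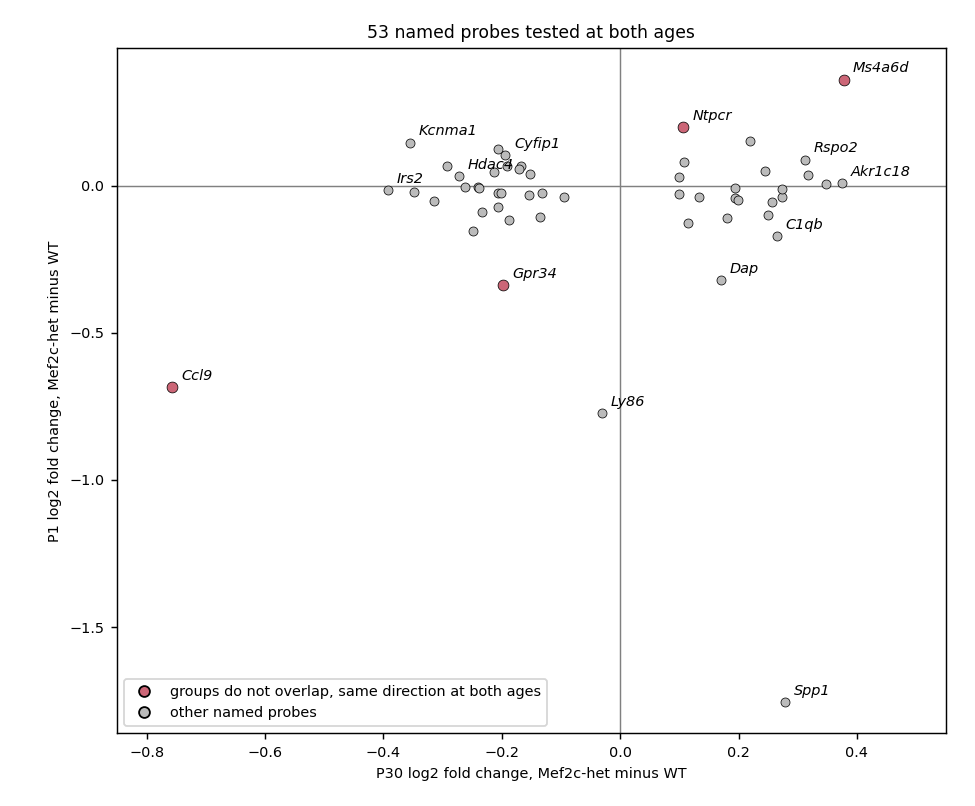
Log2 fold change (Mef2c-het minus WT) at P30 (x axis) and P1 (y axis) of the 53 named probes tested at both ages. Red points mark the 4 probes whose groups do not overlap in the same direction at both ages, and Spp1 and Ly86 lie lowest on the P1 axis.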

How the data were processed

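RNA of mouse hippocampus was hybridised to Illumina MouseRef-8 v2 beadchips, 1 array per mouse. The authors deposited a table that is not normalized, with the mean intensity of the beads of each probe on a linear scale and a detection p-value against the negative controls of the same array; whether a local background was subtracted, and the scanner software, are not given in the sources used here. The submitters' processing notes name lumi and limma with no versions. From the deposited intensity, log2 values were quantile normalized over the 8 arrays of P30 (and separately over those of P1), probes detected on 4 or more arrays (p under 0.05) were kept, and lmFit and eBayes of limma 3.58.1 (R 4.3.3) were fitted with genotype alone, with Benjamini-Hochberg adjustment over all tested probes. The difference between the ages was fitted over all 16 arrays. The precision is limited by the 4 arrays per group. Exact permutation tests used the 70 splits of 4 against 4 arrays. Tables and plots were made with Python 3.11.15, pandas 2.3.3, numpy 2.4.6 and matplotlib 3.10.9. The P30 fit was also run on simulated data with independent errors and no array clusters, so that check does not cover the clusters seen here.

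Probes were named through RefSeq gene tables (25376 of 25697 matched), and a gene with several probes was counted in a list by that of highest mean signal. The 43 lists hold 1462 genes, of which 1075 had a tested probe. The level of a list on an array is the mean over its genes of the deviation from each gene's mean over the 8 arrays. Named genes were every Mef2c probe, probes past the adjusted threshold, the 12 lower and 12 higher probes of smallest p whose groups did not overlap, probes that did so in the same direction at both ages, up to 3 list members per direction whose groups did not overlap, and the 3 probes per direction of smallest p for the difference between ages. Other list members given were chosen after their values were seen. The members and lists were chosen with earlier results of these data known. The clusters of arrays come from average linkage on 1 minus the Pearson correlation, cut into 2.

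The same replicate number in both genotypes did not mark the same animal, and the labels do not say whether it marks a shared litter or batch. Deviations from the group means correlated at 0.185, -0.532 and 0.708 for numbers 3, 6 and 7 at P30. At P1 they correlated at 0.090, 0.402 and 0.828 for numbers 1, 4 and 8. Alternatives were median scaling, cyclic loess, normexp background correction (offset 16), array weights, trend and robust variances, other detection filters, 1 probe per gene, all 16 arrays together, the array cluster or replicate number as a block, the larger cluster alone, sex as a covariate at P1, and leaving out each array. The chemokine list without Ccl9 was added after seeing the data. Some genes are not reported here.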

Additional observations from a re-analysis of the deposited data

Results flagged for a closer look

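In 216 groups of 4 arrays (each genotype, for 55 named probes at P30 and 53 at P1), 18 held 1 array whose gap to the nearest other array was an unusually large share of the whole range of the group, where chance gives about 10.8. At P30 the array apart was Mef2c-het 7 for Dap (share 0.861), Lgi3 (0.844) and Wasl (0.838). It was Mef2c-het 5 for Aph1a (0.897) and Mef2c-het 3 for Fh1 (0.955). Among WT arrays it was WT 3 for Irf9 (0.876) and Ndufb7 (0.865), WT 6 for Lamc1 (0.862) and WT 7 for Ms4a6d (0.953), whose 7.64 lay below 3 arrays at 7.80.

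At P1 the WT 8 array stood apart for Gabrd (0.857), Hdac4 (0.847), Ints3 (0.835) and Selplg (0.865), WT 1 for Ccl4 (0.868) and Rit2 (0.901), and WT 4 for Ly86 (0.871), at 9.67 against 9.25 for the nearest. Among Mef2c-het arrays these were number 8 for Akr1c18 (0.851) and number 1 for Pdyn (0.928).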

How the results depend on the processing

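The count of probes past the adjusted threshold at P30 was 1 and became 0 with array weights, cyclic loess, the larger cluster alone, median scaling, normexp and the replicate block, and 0 to 1 when an array was left out (1 without Mef2c-het 3). Ccl9 stayed lower throughout, from -1.55 (normexp) to -0.70, with adjusted p from 0.00202 to 0.891. The 316 probes at an unadjusted p under 0.05 became 571 with the cluster block, 819 with array weights, 576 in the larger cluster, 159 with median scaling and 822 with no filter, and 155 (without Mef2c-het 6) to 1367 (without Mef2c-het 7) when an array was left out. At P1 the adjusted count of 0 became 2 over all 16 arrays, 1 with the cluster block and 1 in the larger cluster, and stayed 0 when an array was left out; the unadjusted 220 became 337, 426 and 334 under these, 407 with array weights, 75 with median scaling, 654 with no filter, and 108 to 444 when an array was left out. For the difference between ages, 438 became 224 with median scaling, 906 with no filter and 283 to 941 when an array was left out. The cause was not tested. Whether shared replicate numbers pair the animals, by litter or otherwise, is not given by the labels. With the replicate block the unadjusted counts were 479 at P30 (264 lower, 215 higher), 921 at P1 and 662 for the difference. With it the adjusted count at P1 was 3, and Ccl9 at P30 had a limma adjusted p of 0.891. Ly86 at P30 turned from -0.03 to 0.0404 with array weights, 0.0044 with median scaling, 0.0119 with the replicate block, and with 1 array left out ranged from -0.0945 to 0.0508 (0.0508 without Mef2c-het 7, 0.0093 without WT 2), and Spp1 turned to -0.038 in the larger cluster. Over 1079 refits of single named probes these 6 were the sign changes, and of 860 refits of list medians 34 moved by more than 1 SD of the list's level between arrays. The median of all probes stayed between -0.03 and 0.01. Signals near background limit the folds of dim probes.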
